A study of Rattus norvegicus with 4 samples.

Results

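The transcription factors described here, Phox2a, Hand1, Hand2, Gata2, Gata3, Insm1, Isl1 and Sox11, were chosen by gene symbol as factors of the sympathoadrenal lineage to which the glomus cells of the carotid body (CB) belong. Of these 8 genes, 7 had a row among the 32883 genes of the count table, and Insm1 was not analysed here. The series holds 4 bulk RNA-seq libraries of untreated Sprague Dawley rats with no engineered allele, 2 of CBs taken at 5 days of age (neonates) and 2 of CBs taken at 21 days (adults). As the series' design text gives it, each neonatal library pooled the CBs of 6 pups and each adult library those of 3 rats, while the study's methods give larger pools and more replicates than the 2 libraries per age analysed here. The study states that both sexes were included. A library therefore stands for a pool and not for 1 animal. The design text says that part of the litter was kept to day 21, without tying litters to libraries, and p-values measure only the spread between these pooled libraries.

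Glomus cells derive from the neural crest, like sympathetic neurons and the chromaffin cells of the adrenal medulla, and all of them make catecholamines. In this lineage a bone morphogenetic protein (BMP) signal acts first, and the homeodomain factor Phox2a is followed by the basic helix-loop-helix (bHLH) factor Hand2, the zinc finger factors Gata2 and Gata3, the Lim-homeodomain factor Isl1 and the zinc finger repressor Insm1. These factors act together on genes of noradrenergic identity such as Th, which encodes tyrosine hydroxylase, and Dbh, which encodes dopamine beta-hydroxylase. Sox11 belongs to the SoxC group, which is active in newly formed neurons.

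Estimated counts summed to between 36286191 and 39476110 per library. Levels are given as CPM (the share of a library's counts, scaled up) after scaling by edgeR's TMM method, at which 3 counts, taken as the floor of detection for counting error only, came to between 0.0736 and 0.0845 CPM. A gene was tested if 2 or more libraries reached 1 CPM. The test was edgeR's quasi-likelihood test of day 5 over day 21, and its p-values were adjusted by Benjamini-Hochberg over all 13843 genes tested. Below, the standard error of a log2 fold change is written SE, and every adjusted p with no other tool named is that of edgeR. Scaling to library size alone moved the median over all genes by -0.25 on the log2 scale, with mitochondrially encoded genes at 15.6% and 18.7% of neonatal and at 9.06% and 9.08% of adult counts. The 11 glomus cell markers examined were all detected, and their CPM summed to 8258 and 6996 at day 5 and to 8853 and 7449 at day 21. Of these markers 3 were higher and 4 lower at day 5, most of all the potassium channel gene Kcnk9 (log2 fold change -3.37) and the olfactory receptor gene Olr59 (-1.04). Chga, which parathyroid cells also make, is among the 11 markers. It had 1725 and 793 CPM at day 5, replicate 1 first, and 786 and 661 CPM at day 21. The RNA comes from whole tissue, so fewer cells of a type and less RNA per cell cannot be told apart in any of the results.

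The neonatal libraries held RNA of other cell types at other levels than the adult libraries did, and these values are given again beside the factors they moved with. The 3 parathyroid markers (Pth, Gcm2 and Casr) summed to 1796 CPM in neonate replicate 1 and to 212 CPM in the other neonatal library, while adults had 0 counts of Pth and Gcm2 and at most 2 counts of Casr in a library. The 12 sympathetic neuron markers summed to 2633 and 2151 CPM at day 5 and to 1518 and 1305 CPM at day 21. The 10 proliferation markers summed to 737.5 and 643 CPM at day 5 against 172 and 176.8 CPM at day 21, a 3.96-fold difference of the means.

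**Figure D1:**
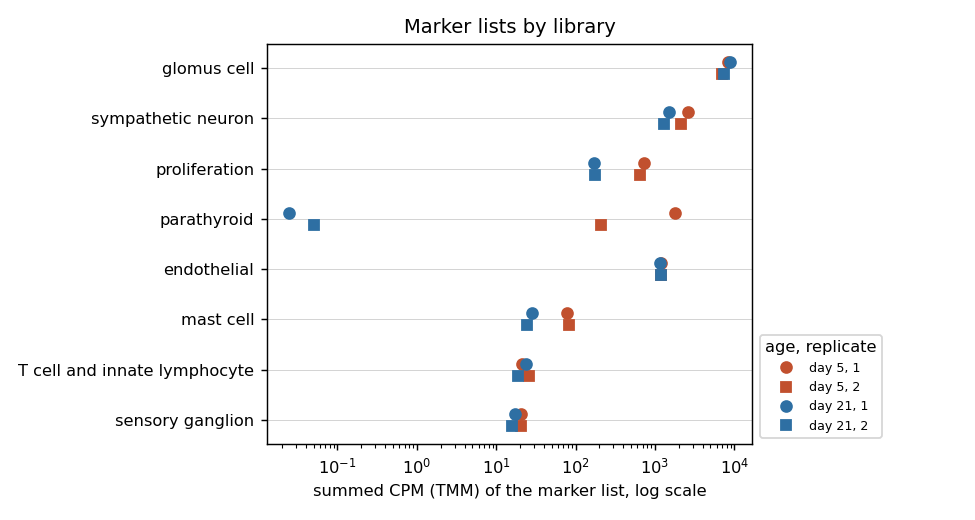
Summed CPM (TMM) of 8 lists of marker genes on a log scale, with 1 point per library, day 5 in red and day 21 in blue, circles for replicate 1 and squares for replicate 2. Glomus cell and endothelial markers lie at like levels in all 4 libraries, sympathetic neuron and proliferation markers lie higher in both neonatal libraries, and parathyroid markers range from 1796 CPM in neonate replicate 1 to under the floor of detection in the adult libraries.

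Of the 6 factors that passed the filter, 2, Sox11 and Gata3, were called (adjusted p under 0.05 with a 2-fold or larger difference), both higher at day 5, and none was called lower. Among all genes tested, 20.8% were called, 7.68% higher and 13.2% lower at day 5. At an adjusted p under 0.05 without a minimum fold change, Gata2 was also higher at day 5, while Phox2a, Hand2 and Isl1 did not pass, against 31.2% of all genes higher and 31.1% lower. The median log2 fold change of the 6 factors was 0.46, beside -0.0029 for all genes. Sox11 passed the filter through the neonatal libraries alone and Hand1 fell short of it, so neither these counts nor the median are ones over all the factors.

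**Figure D2:**
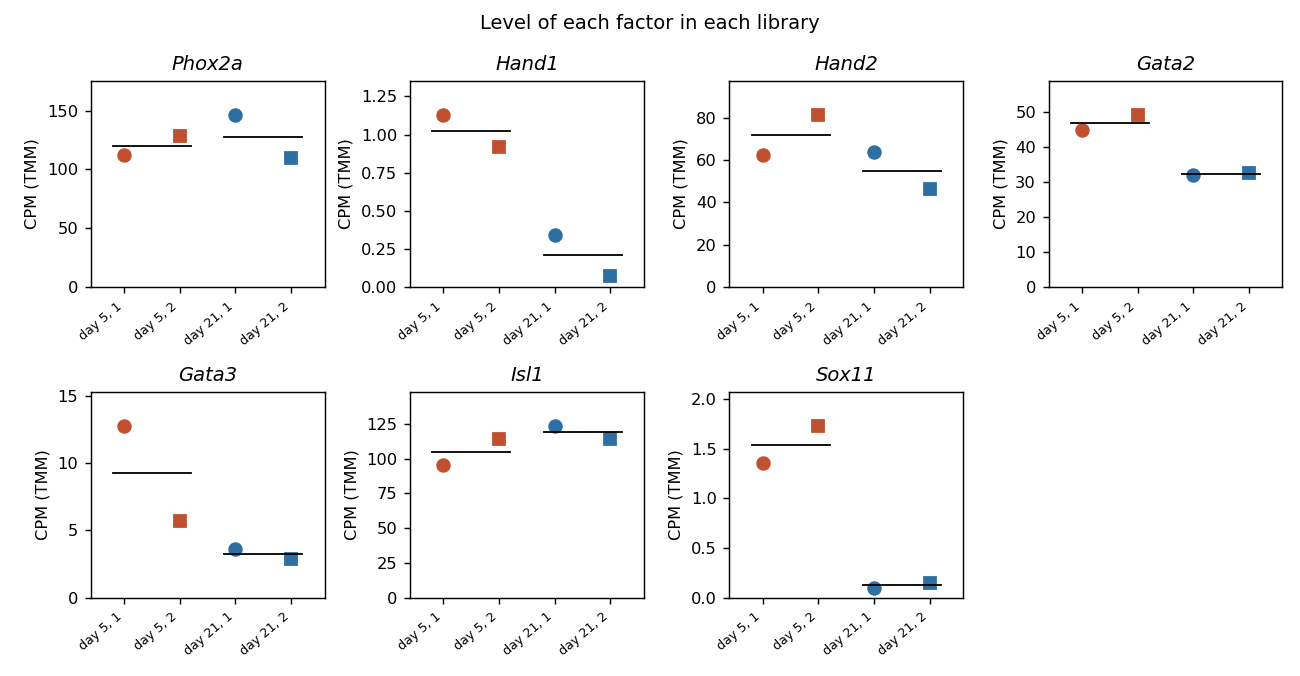
CPM (TMM, linear axis from 0) of the 7 factors with a row, with 1 point per library, day 5 in red and day 21 in blue, and a line at the mean of each age. Hand1, Gata2, Gata3 and Sox11 have both neonatal points above both adult points, Phox2a and Hand2 overlap between ages, and the neonatal and adult points of Isl1 nearly touch.

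Phox2a, the homeodomain factor that acts on Dbh and Th, had 111.9 and 128.4 CPM in the neonatal libraries and 146 and 109.9 CPM in the adult libraries. The highest and the lowest of these values were both adult, and the ages overlapped. The log2 fold change was -0.09 (SE 0.13, 95% interval of the fit from -0.38 to 0.20, adjusted p = 0.56 in edgeR). The interval leaves out a 2-fold change in either direction. Its sign turned without neonate replicate 1 (0.015) or adult replicate 1 (0.099), and without adult replicate 2 Phox2a was lower at day 5 (-0.31, adjusted p = 0.030 in edgeR).

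Isl1, which acts in the differentiation of sympathetic and sensory neurons, had 95.2 and 113.9 CPM at day 5 and 123.4 and 114.2 CPM at day 21. Neonate replicate 2 and adult replicate 2 were nearly equal, with neonate replicate 1 below and adult replicate 1 above them. Its log2 fold change was -0.18 (SE 0.10, 95% interval from -0.41 to 0.04, adjusted p = 0.13 in edgeR). It was lower at day 5 when scaled to library size alone, at -0.43 (adjusted p = 0.0084 in edgeR), and without neonate replicate 2, at -0.30.

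Hand2, the bHLH factor that keeps the noradrenergic program active, had 62.4 and 81.1 CPM at day 5 and 63.7 and 46.3 CPM at day 21. Neonate replicate 1 lay between the adult libraries, so the ages overlapped. The log2 fold change of 0.38 (SE 0.16, 95% interval from 0.01 to 0.75) had an adjusted p of 0.067 in edgeR's quasi-likelihood test. This call depended on the tool and on single libraries, with an adjusted p of 0.029 by DESeq2, 0.0066 with replicate number as a block, 0.0075 without neonate replicate 1, 0.0085 without adult replicate 1, and 0.49 with library size alone, which bound the range over the alternatives.

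Its relative Hand1, better known from heart and trophoblast, was low in all libraries and at the floor of detection in adult replicate 2. It had 40 and 33 counts in the neonatal libraries and 14 and 3 in the adult libraries, or 1.13 and 0.919 CPM against 0.344 and 0.0756 CPM. Both neonatal values lay above both adult values, as was the case for 83.0% of all genes tested in one direction or the other. Pooled over libraries, the ratio of day 5 to day 21 was 4.83 (exact Clopper-Pearson 95% interval 2.82 to 8.75, counting error only). In a fit without the filter the log2 fold change was 2.24 (SE 0.77, adjusted p = 0.040 in edgeR over 19411 genes, of which 16.0% were called).

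Gata2, which is needed for noradrenergic differentiation and is also a factor of mast cells, blood progenitors and endothelium, had 44.8 and 49.0 CPM at day 5 against 31.9 and 32.5 CPM at day 21. The libraries of an age lay close together and the ages did not overlap. Gata2 was 1.46-fold higher at day 5, with a log2 fold change of 0.54 (SE 0.09, adjusted p = 0.00096 in edgeR), and stayed past the threshold under every normalization, filter and tool tried and without any 1 library. Of 6 mast cell markers tested, 4 were higher at day 5 and none was lower, and the 7 markers together summed to 78.4 and 82.0 CPM at day 5 and to 28.4 and 24.7 CPM at day 21. Endothelial markers summed to between 1149 and 1194 CPM in all 4 libraries, while of the 8 tested 2 were higher and 3 lower at day 5. The 3 erythroid markers tested were all called higher at day 5, and the 5 with a row summed to 2984 and 1780 CPM at day 5 and to 796.4 and 782.7 CPM at day 21, nearly all of it from Hbb, which has fractional estimated counts. The part of mast cells, of endothelium and of blood cells in the level of Gata2 was not tested.

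Gata3, which maintains sympathoadrenal cells and is also a factor of the parathyroid gland and of T cells, had 12.8 and 5.73 CPM in the neonatal libraries, replicate 1 first, and 3.63 and 2.87 CPM in the adult libraries. Neonate replicate 1 stood apart, at 2.22 times the other neonatal library, and the ages did not overlap. Gata3 was 2.84-fold higher at day 5, with a log2 fold change of 1.51 (SE 0.36, adjusted p = 0.0060 in edgeR). Without neonate replicate 1 the log2 fold change was 0.83 (adjusted p = 0.024 in edgeR), under the 2-fold minimum, and without neonate replicate 2 it was 1.99. Neonate replicate 1 was also the library with 8.49 times the parathyroid marker sum of the other neonatal library, and Chga, a secretory granule protein of glomus and parathyroid cells, stood at 1725 and 793 CPM in the neonatal libraries. The part of parathyroid RNA in the level of Gata3 was not tested. The 9 T cell and innate lymphocyte markers summed to between 19.0 and 26.2 CPM, most of it from Bcl11b (12.4 to 20.6 CPM) and Lck (3.76 to 4.93 CPM), while the T cell receptor complex genes Cd3d and Cd3e had at most 9 counts in any library and Cd3g had 13 to 42. The part of lymphocytes was not tested either.

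Sox11, the SoxC factor of immature neurons, had 48 and 62 counts in the neonatal libraries and 4 and 6 in the adult libraries, or 1.35 and 1.73 CPM against 0.0982 and 0.151 CPM. The neonatal levels were low and the adult levels were just above the floor of 3 counts. The log2 fold change was 3.59 (SE 0.52, adjusted p = 0.00036 in edgeR), the largest of the 6 factors tested. Sox11 was among these 6 only through its neonatal libraries, the age at which it was high, and Hand1 was not among them. The ratio of the pooled counts of Sox11 was 12.4 (exact Clopper-Pearson 95% interval 6.49 to 26.5, counting error only). Without neonate replicate 1 or 2 Sox11 fell short of the filter, and with the filter taken over all 4 libraries its log2 fold change was 3.76 and 3.42. Proliferation and sympathetic neuron markers were higher in the same libraries, and their part in Sox11 was not tested.

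**Figure D3:**
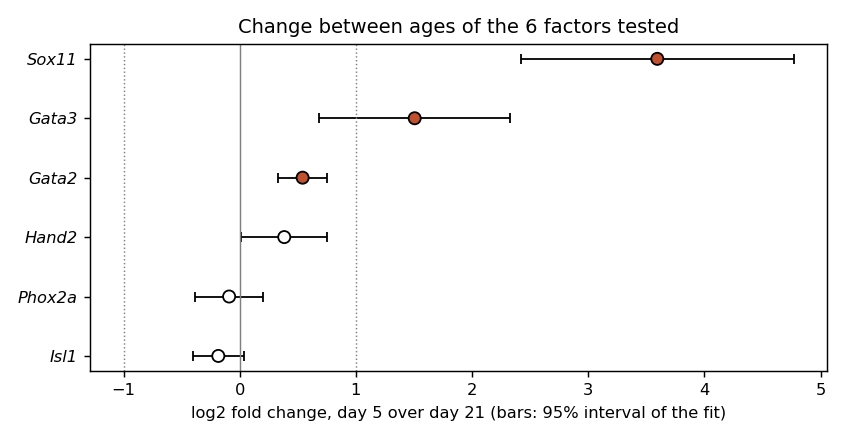
Log2 fold change, day 5 over day 21, of the 6 factors that passed the filter, with the 95% interval of edgeR's fit as bars, filled where the adjusted p was under 0.05, and dotted lines at a 2-fold change. Sox11 (3.59), Gata3 (1.51) and Gata2 (0.54) lie above 0, and the intervals of Phox2a and Isl1 include 0.

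Within each library, the level of a factor was also set against the mean log2 CPM of the 11 glomus cell markers, a ratio that does not depend on scaling between libraries. These markers include Chga, and no alternative left out Chga by itself. The difference between ages, day 5 minus day 21, was 3.85 for Sox11, 2.87 for Hand1, 1.74 for Gata3, 0.88 for Gata2, 0.73 for Hand2, 0.26 for Phox2a and 0.15 for Isl1. In an exact two-sided permutation test each had p = 0.333, the smallest that 2 libraries against 2 can give, except Isl1 with p = 0.667, whose difference turned to -0.0703 without neonate replicate 2. For Phox2a, neonate replicate 1 and adult replicate 1 were level at -1.26, and a prior count of 2 in place of 0.5 gave p = 0.667 in the same permutation test. Phox2a and Isl1 thus had the opposite sign to their fold changes. Without Kcnk9 among the markers, an alternative chosen after seeing the data, both were below 0 again (-0.0433 and -0.152). In that setting Sox11, Hand1, Gata3, Gata2 and Hand2 stood at 3.55, 2.57, 1.44, 0.576 and 0.426. Set against Th alone in place of the 11 markers, Phox2a and Isl1 stayed above 0, at 0.372 and 0.263. Th was itself lower at day 5 (log2 fold change -0.45).

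The proportions of related factors were compared within each library. The log2 ratio of Gata3 to Gata2 was -1.81 in neonate replicate 1, -3.09 in neonate replicate 2, and -3.13 and -3.49 in the adult libraries, so that neonate replicate 2 was nearly at the adult values. That of Hand1 to Hand2 was -5.78 and -6.44 at day 5 and -7.48 and -9.03 at day 21. Both ratios separated the ages, and both had the smallest p that the exact two-sided permutation test allows, 0.333. Transcript length cancels in these differences between ages but not in the ratios themselves.

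**Figure D4:**
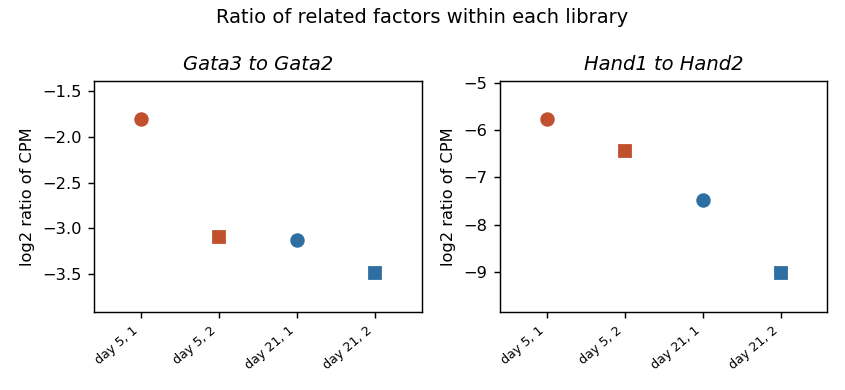
Log2 ratio of CPM within each library for 2 pairs of related factors, with 1 point per library, day 5 in red and day 21 in blue. For Hand1 to Hand2 both neonatal points lie above both adult points, and for Gata3 to Gata2 it is neonate replicate 1 (-1.81) that lies far above the other 3 libraries.

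Several other relatives were scarce. Gata4 and Isl2 had 0 counts in every library, which at this depth allows up to the floor of 3 counts, and Insm2 had at most 5. Gata6 at 7.98 to 12.1 CPM and the SoxC gene Sox12 at 2.99 to 4.61 CPM did not pass the threshold (log2 fold changes of 0.28 and -0.41).

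A further 16 factors tested were listed with the lineage and the neural crest, though not all are particular to them. Their median log2 fold change was -0.61, and the part of other cell types in it was not tested. Of the 16, 9 were lower and 5 higher at day 5 at an adjusted p under 0.05, beside 31.1% and 31.2% of all genes. The number higher was 3 with library size alone and 3 without adult replicate 1. Those lower at day 5 included Prox1 (-2.28) and Eya1 (-1.78), a regulator of placode and sensory organ development. Toward day 5, the AP-2 factors of neural crest Tfap2a (1.45) and Tfap2b (1.32) rose together with Mycn (0.996), a growth-promoting factor of sympathoblasts. Epas1, which encodes the hypoxia-inducible factor HIF-2 alpha and is needed for glomus cells, had 1743 and 1886 CPM at day 5 against 3771 and 2727 CPM at day 21 (log2 fold change -0.84, adjusted p = 0.0012 in edgeR). Rest, the repressor of neuronal genes, was at -1.05, and Zeb2 and St18 at -0.88 and -0.98.

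Partners through which the factors act were counted by family. Of all genes tested, 31.2% were higher and 31.1% lower at day 5 at an adjusted p under 0.05. These shares stand beside the counts of each list below. Hand1 and Hand2 bind DNA as dimers with E proteins, and of these Tcf3 was higher at day 5 (98.1 and 97.5 against 51.4 and 53.5 CPM, log2 fold change 0.90), while Tcf4 (-0.94) and Tcf12 (-0.78) were lower. With library size alone 5 of the 9 partners and Id genes were lower. Of the Id proteins, which take E proteins out of such dimers, Id4 was higher at day 5 (0.59), and Id1, Id2 and Id3 lay between -0.06 and 0.02 and did not pass. Twist1 and Twist2 did not pass either. Of 11 cofactors of Gata and Lim-homeodomain factors, 6 were higher at day 5 and none was lower, with a median log2 fold change of 0.36. Among them were Ldb1 (0.54), the scaffold that joins Lim and Gata complexes, and the Lim-only proteins Lmo4 (1.09), Lmo1 (0.95), Lmo3 (0.64) and Lmo2 (0.57), which bind it. The Gata cofactor Zfpm1 was at 0.36 (adjusted p = 0.049 in edgeR), and Zfpm2 and Tal1 did not pass. Scaled to library size alone, 4 of the 11 were higher and 2 lower at day 5, and 4 were higher on leaving out any 1 library except neonate replicate 1.

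The corepressor complex built on the histone demethylase Kdm1a, which Insm1 recruits, gave 3 genes higher and 3 lower at day 5 of 8 tested. Kdm1a itself was higher (131.5 and 129.6 against 85.2 and 83.9 CPM, log2 fold change 0.63), as were Hmg20b (1.57) and the deacetylase Hdac2 (0.42), whereas Gse1 (-0.88) and Rcor3 (-0.76) were lower. In the BMP pathway, 5 of 10 genes tested were lower at day 5 and none was higher, and 8 were lower with library size alone. The type I receptor Bmpr1a (-1.76) and the ligand Bmp7 (-1.29) differed most, followed by the type II receptor Bmpr2 (-0.87), while the ligands Bmp2 and Bmp4 did not pass.

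**Figure D5:**
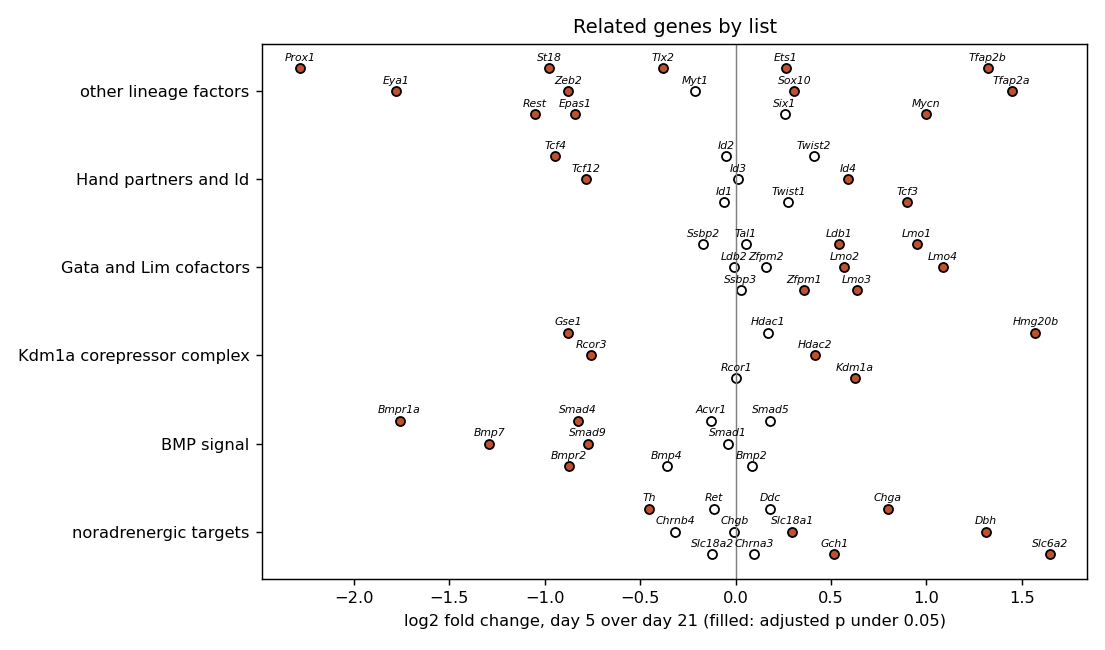
Log2 fold change, day 5 over day 21, of genes tested in 6 lists of related genes, without 3 genes not reported here, with 1 labelled point per gene, filled where the adjusted p was under 0.05 and spread vertically for legibility only. Cofactors of Gata and Lim factors lie at or above 0 apart from 2 open points just below it, BMP genes that passed all lie below 0, and Dbh (1.31) and Th (-0.45) lie on opposite sides.

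Of 12 genes listed here as possible targets of the factors, not all of them noradrenergic, 5 (Chga among them) were higher and 1 was lower at day 5. This balance turned to 2 higher and 3 lower with library size alone, and the number higher was 3 without neonate replicate 1 and 2 without adult replicate 2. Dbh, which makes noradrenaline from dopamine, had 216.2 and 139.2 CPM at day 5 against 83.8 and 59.4 CPM at day 21, and its log2 fold change was 1.31 (SE 0.21, adjusted p = 0.00058 in edgeR). Slc6a2, the noradrenaline transporter, was at 1.65 (176.8 and 117.8 against 49.5 and 44.5 CPM). Th, the rate-limiting enzyme of catecholamine synthesis, went the other way, with 1020 and 837 CPM in neonates and 1407 and 1135 CPM in adults (log2 fold change -0.45, SE 0.13, adjusted p = 0.016 in edgeR). The difference in Th was lost without neonate replicate 2 or adult replicate 1. Ret, Chrna3, Chrnb4, Ddc, Slc18a2 and Chgb did not pass. Dbh and Slc6a2 are also among the 12 sympathetic neuron markers, of which 11 were higher at day 5, 7 of them past 2-fold, with Npy at 2.002. In this list Npy has fractional estimated counts. Sensory ganglion neurons express Isl1 as well, and their 7 markers with a row summed to 20.4 and 20.3 CPM at day 5 and to 17.2 and 15.9 CPM at day 21. Avil, Trpv1 and P2rx3 were detected in every library (95 to 387 counts) and did not pass the threshold, Scn10a had at most 18 counts, Pou4f1 at most 1, and Prdm12 and Tlx3 had 0. The part of ganglion neurons in the levels of the factors and of Dbh was not tested.

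The 250 bases upstream of the RefSeq start site (build GRCr8, coding strand) are shown for the 2 factors called and for Dbh and Th, the targets that moved in opposite directions. Capitals mark letters that match, on either strand, the homeodomain core TAAT, the GATA core GATAA, the E-box CANNTG, the Sox core ACAAT or the cyclic AMP response element TGACGTCA. The windows are chr6:49738795-49739044 (minus strand) for Sox11, chr17:73553298-73553547 (plus) for Gata3, chr3:30886078-30886327 (plus) for Dbh and chr1:207508219-207508468 (minus) for Th.
Sox11: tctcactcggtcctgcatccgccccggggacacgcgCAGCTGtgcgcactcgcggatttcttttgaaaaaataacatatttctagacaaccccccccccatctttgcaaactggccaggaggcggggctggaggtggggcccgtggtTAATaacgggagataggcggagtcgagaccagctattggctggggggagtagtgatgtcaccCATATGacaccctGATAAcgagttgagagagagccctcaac
Gata3: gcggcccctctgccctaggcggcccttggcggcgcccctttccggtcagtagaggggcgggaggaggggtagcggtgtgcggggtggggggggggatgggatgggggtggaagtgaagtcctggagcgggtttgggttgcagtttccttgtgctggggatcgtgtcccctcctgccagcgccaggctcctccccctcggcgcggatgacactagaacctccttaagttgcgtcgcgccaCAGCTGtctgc
Dbh: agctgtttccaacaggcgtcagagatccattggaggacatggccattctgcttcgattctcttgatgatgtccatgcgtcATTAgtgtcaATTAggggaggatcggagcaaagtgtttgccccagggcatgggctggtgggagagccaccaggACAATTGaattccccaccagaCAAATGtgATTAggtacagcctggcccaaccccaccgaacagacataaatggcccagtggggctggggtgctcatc
Th: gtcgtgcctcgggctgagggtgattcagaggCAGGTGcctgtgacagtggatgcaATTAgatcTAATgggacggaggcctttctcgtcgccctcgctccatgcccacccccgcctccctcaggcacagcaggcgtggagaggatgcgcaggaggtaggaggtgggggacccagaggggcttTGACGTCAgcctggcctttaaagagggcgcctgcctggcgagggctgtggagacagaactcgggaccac

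The Dbh window held 3 homeodomain cores, beginning at positions -170, -160 and -68 from the start site, with 2 E-boxes at -96 and -76, the first of which overlaps the Sox core at -97. The Th window held 2 homeodomain cores, at -195 and -187, an E-box at -219 and a cyclic AMP response element at -69. Of all 33469 promoter windows of this length, 57.0% held the homeodomain core, 23.5% the GATA core, 65.5% the E-box, 30.0% the Sox core and 1.59% the cyclic AMP response element. The Sox11 window held 1 GATA core, 1 homeodomain core and 2 E-boxes, and the Gata3 window held 1 E-box and no other of these. Of the factors not shown, Hand2 had 5 homeodomain cores, a pair of which overlap each other and the GATA core. Gata2 and Isl1 had 1 homeodomain core, and Phox2a and Hand1 had none. These are matches of letters and not measured binding.

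Over the 4 libraries, the genes whose centred log2 CPM profile lay nearest to Sox11 by Euclidean distance were Zfp663 (0.22), Slc9a5 (0.27) and Ptpn5 (0.30). Nearest to Gata3 were Setdb2 (0.08), AABR07001512.1 (0.15) and Fam72a (0.18). With 4 libraries such distances are a description of likeness only.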

How the data were processed

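Reads from poly(A)-selected libraries were trimmed, mapped with STAR and quantified with Salmon 1.5.2 on Rnor_6.0, per the study's methods and the submitters' processing notes. The authors deposited estimated counts summed per gene, not normalized. Counts of the 2 libraries of an age differed by far more than sampling noise (chi-square per degree of freedom 29.0 and 13.3). Whether counting used strand is not given in the sources used here, so reads of antisense neighbours cannot be told apart. None of the 7 factors had fractional counts.

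Estimated counts were rounded. In R 4.3.3 with edgeR 4.0.16, 636 genes whose symbol RefSeq lists with a non-coding type were left out, genes reaching 1 CPM in 2 or more libraries were tested, and the quasi-likelihood test after TMM was run without covariates. DESeq2 1.42.0 and limma 3.58.1 (voom) were alternatives, with other scalings, filters, a replicate block and each library left out. On simulated data of 13649 genes with 200 changed, 189 were called with the right sign and 1 unchanged gene was called. Far fewer genes changed there than the 20.8% called in the data, so these numbers do not give the accuracy of the calls reported here. Log ratios used a prior count of 0.5.

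Named genes are the 8 factors, up to 3 genes per direction with the largest changes past the threshold in each list of related genes, named partners and relatives, marker genes with the highest levels or 0 counts, and the 3 nearest profiles of each factor called. Epas1, Rest, Zeb2, St18, Kcnk9, Olr59, Cd3d, Cd3e, Cd3g, Scn10a and Pou4f1 were added after their values were seen. The factors and all lists were chosen with earlier results of these data known. Where a symbol had more than one entry, that with more reads was used. Some genes of the lists are counted but not reported by name here.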

Additional observations from a re-analysis of the deposited data

How the results depend on the processing

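Depth limits Hand1 and Sox11 most, with at most 62 counts in a library. Over all alternatives, fold changes were compared by direction and side of the adjusted p threshold, and ratios by direction alone, and 131 of these comparisons stayed the same. Fold changes newly passed that threshold 9 times and never lost it where the factor was still tested. Fold changes and ratios turned direction 6 times. These tallies leave out settings in which Sox11 was not tested and do not use the 2-fold minimum. Counts of genes stayed within 1.5 times 113 times, rose 8 times and fell 11 times. Against 2 factors called higher at day 5, a filter on a mean of 5 CPM left 1, since Sox11 was then not tested, and leaving out 1 library gave 0 to 2, with 0 without neonate replicate 1, where Sox11 was not tested and Gata3 was under 2-fold. With genes filtered over all 4 libraries, an alternative chosen after seeing the data, 1 was called without neonate replicate 1. Factors lower at day 5 by adjusted p alone, 0 at first, came to 1 (Isl1) with library size alone, to 0 to 1 on leaving out 1 library, and to 1 without neonate replicate 2 with genes filtered over all 4 libraries. The log2 fold change of Phox2a ran from -0.31 to 0.10 on leaving out 1 library, turning positive without neonate replicate 1 (0.015, or 0.0065 with the later filter) or adult replicate 1 (0.099) and passing at -0.31 without adult replicate 2 (edgeR adjusted p = 0.030). Hand2 passed at 0.38 with DESeq2 and at 0.56 without neonate replicate 1 under the later filter, and ran from 0.15 to 0.60 on leaving out 1 library. Isl1 passed at -0.43 with library size alone and at -0.31 without neonate replicate 2 under the later filter, ran from -0.30 to -0.050 on leaving out 1 library, and its ratio to the glomus markers ran from -0.0703 to 0.371, turning negative without neonate replicate 2. With Kcnk9 left out of the markers after seeing the data, the ratios of Phox2a and Isl1 turned to -0.0433 and -0.152. Against Th alone both ratios stayed above 0 (0.372 and 0.263). Library size alone shifted all genes toward lower values at day 5, and with it 3 lineage factors and 2 targets were higher, and 5 partners of Hand factors, 2 of Gata and Lim factors, 8 BMP genes and 3 targets were lower. Leaving out 1 library gave 3 to 4 lineage factors higher, 2 to 5 targets higher and 0 to 1 target lower (Th). Replicate numbers did not pair the libraries (correlation of deviations between ages -0.015), and with replicate number as a block Hand2 passed at 0.39 (edgeR adjusted p = 0.0066), while no other of the 6 factors changed its call. Other causes of these changes were not tested.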
